A study of Homo sapiens with 8 samples.

Results

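The 7 genes PTBP1, PTBP2, PTBP3, HNRNPL, HNRNPLL, HNRNPK and PCBP2 encode RNA-binding proteins that regulate splicing, and every skipped-exon event listed under their symbols was taken. They held 69 of 82355 events in the table of the line MCF10A and 73 of 98244 events in that of HMLE TWIST. These were 97 distinct events over 63 exons, of which 45 events were listed for both lines. MCF10A is a non-tumorigenic breast epithelial line. HMLE TWIST are immortalised breast epithelial cells in which TWIST, a transcription factor of the epithelial-mesenchymal transition, is overexpressed from a retroviral pBabe insertion. Each line was grown for 24 hours with the solvent DMSO, called control here, or with 10 µM emetine, an alkaloid that blocks translation, which gave 4 groups of 2 libraries. The series concerns regulators of splicing that act on RNA G-quadruplexes, and the comparison asks which exons change their inclusion under the compound.

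PTB proteins bind pyrimidine-rich RNA and mostly repress exons. PTBP1 is found in most cells, PTBP2 takes its place in neurons, and PTBP1 is known to hold down PTBP2 by causing an exon of its transcript to be skipped. hnRNP L and its relative hnRNP LL bind CA-rich RNA, while hnRNP K and PCBP2 bind C-rich RNA through KH domains. Several of these genes carry an exon whose inclusion or skipping brings a premature stop codon into frame. Such transcripts are substrates of nonsense-mediated decay, a pathway that depends on translation, and through it a splicing factor can limit its own level.

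The letters of the exons that the results turn on are shown first. They come from GENCODE 29 transcripts on the build GRCh38 and are given 5′ to 3′ on the strand of the gene. The 34-nucleotide exon has a counterpart in each PTB gene, and capitals mark the 19 bases that are the same in all 3.
PTBP1 34-nucleotide exon, chr19:807869-807902, plus strand: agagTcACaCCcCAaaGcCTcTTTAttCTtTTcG
PTBP2 34-nucleotide exon, chr1:96806419-96806452, plus strand: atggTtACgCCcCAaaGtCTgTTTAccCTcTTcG
PTBP3 34-nucleotide exon, chr9:112231380-112231413, minus strand: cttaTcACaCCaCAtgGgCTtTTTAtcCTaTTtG
PTBP1 matched PTBP2 at 25 of the 34 positions and PTBP3 at 22, and PTBP2 matched PTBP3 at 21. The exon is not a multiple of a codon long. Without it, the reading frame of the longest annotated coding transcript met a stop 361 nucleotides before the last exon junction in each of the 3 genes. A stop more than 50 nucleotides before the last junction is the usual mark of a target of nonsense-mediated decay, and 7 forms with such a stop, 1 per gene, are called the decay forms below. They are the forms without the 34-nucleotide exon in the PTB genes and, in the other genes, those that bring the stop into frame and are annotated only in decay transcripts.

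In HNRNPL and HNRNPLL the decay form is made by inclusion. Capitals mark the first stop codon in the frame of the upstream coding exons, and it lies within both exons.
HNRNPL 70-nucleotide exon, chr19:38841613-38841682, minus strand: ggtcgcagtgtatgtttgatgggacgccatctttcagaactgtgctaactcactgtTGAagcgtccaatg
HNRNPLL 83-nucleotide exon, chr2:38577920-38578002, minus strand: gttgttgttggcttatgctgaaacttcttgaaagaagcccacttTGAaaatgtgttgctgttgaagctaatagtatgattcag
The stop fell 842 nucleotides before the last junction in HNRNPL and 807 in HNRNPLL. For HNRNPK the decay form lacks an exon, which moved the stop to 1083 nucleotides before the last junction. For PCBP2 it includes an exon, and the shifted frame met its stop downstream of that exon, 436 nucleotides before the last junction. The in-frame 39-nucleotide exon of PCBP2 is shown because its level differed between the lines.
HNRNPK 44-nucleotide exon, chr9:83975462-83975505, minus strand: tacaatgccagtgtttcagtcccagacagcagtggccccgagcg
PCBP2 39-nucleotide exon, chr12:53467805-53467843, plus strand: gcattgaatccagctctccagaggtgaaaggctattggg
GENCODE 29 gives the decay forms of PTBP1, HNRNPL, HNRNPLL, HNRNPK and PCBP2 only in transcripts of the class nonsense-mediated decay. It gives the PTBP2 form as a processed transcript and lists no transcript with the PTBP3 form.

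Junction reads, those that span a splice junction, came to between 78412292 and 91259363 per library when summed over all events, and a read can count in several events. Epithelial marker genes were listed for MCF10A at 1025 to 1977 junction reads per 1000000 (5 of 8 genes, CDH1 among them) and for HMLE TWIST at 0.0219 to 0.276 (3 of 8). In HMLE TWIST, which the labels call epithelial, KRT5 and KRT14 had no event and CDH1 had at most 7 reads in a library. Mesenchymal markers came to 87.2 to 371 reads per 1000000 in MCF10A (6 of 7 genes) and to 26509 to 44119 in HMLE TWIST (7 of 7). These sums grow with the number of listed events, 1 and 18 for VIM and 5 and 50 for FN1. In its deepest event VIM had 24923 and 28296 reads in the MCF10A controls against 190386 and 181765 in those of HMLE TWIST. For FN1 these were 294 and 303 against 94246 and 83048. Of 3 lymphocyte markers, none was listed for MCF10A and PTPRC alone for HMLE TWIST, with at most 2 reads. PTBP1, HNRNPL, HNRNPK and PCBP2 have pseudogenes, and how reads that fit several places were counted is not given in the sources used here. No source used here says whether the 2 libraries of a group came from separate cultures. The spread between libraries that the p-values draw on may therefore be technical.

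Under emetine the decay forms that could be tested, 6 of the 7 in each line, became more common, from small shares except in PTBP2. The inclusion level of an exon is the share of its inclusion form among inclusion and skipping reads, each divided by the effective length of its form, and a change is the level under emetine minus that in the control. An event was tested where each library had at least 20 junction reads and the rarer form at least 10 over all of them. A quasi-binomial model of the reads with Benjamini-Hochberg adjustment over all events of the fit was used, and levels are said to rise or fall where its adjusted p is under 0.05. An event is called where the change is also at least 0.1. The dispersion of the model came out as a single value for all events of a fit. An event's own spread between libraries therefore has no weight in these p-values. As an alternative, the larger of an event's own dispersion and the shared value was used, called the larger dispersion below. The 6 tested in MCF10A all rose, as did the 6 tested in HMLE TWIST, and limma also gave an adjusted p under 0.05 for 6 of 6 in each line. PTBP3 in MCF10A met the minimum of 10 only through the emetine libraries, with 6 and 4 reads of its decay form. A fall could not have been seen for it, so its rise adds nothing to that count. The untested ones were PTBP2 in MCF10A, where the mean share was 97.5% in the controls and 92.1% under emetine, and PTBP3 in HMLE TWIST, with 0.871% and 0.973%. The 7 were chosen with earlier results known, and other exons that bring in such a stop, described further on, did not all move this way. Over all tested events, limma's adjusted p was under 0.05 in either direction for 21.9% in MCF10A and 27.4% in HMLE TWIST, and the libraries of the 2 groups did not overlap in 67.4% and 69.9%. Steady-state reads do not show how fast a form is made or lost, so a change of splicing and a change of decay cannot be told apart.

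**Figure D1:**
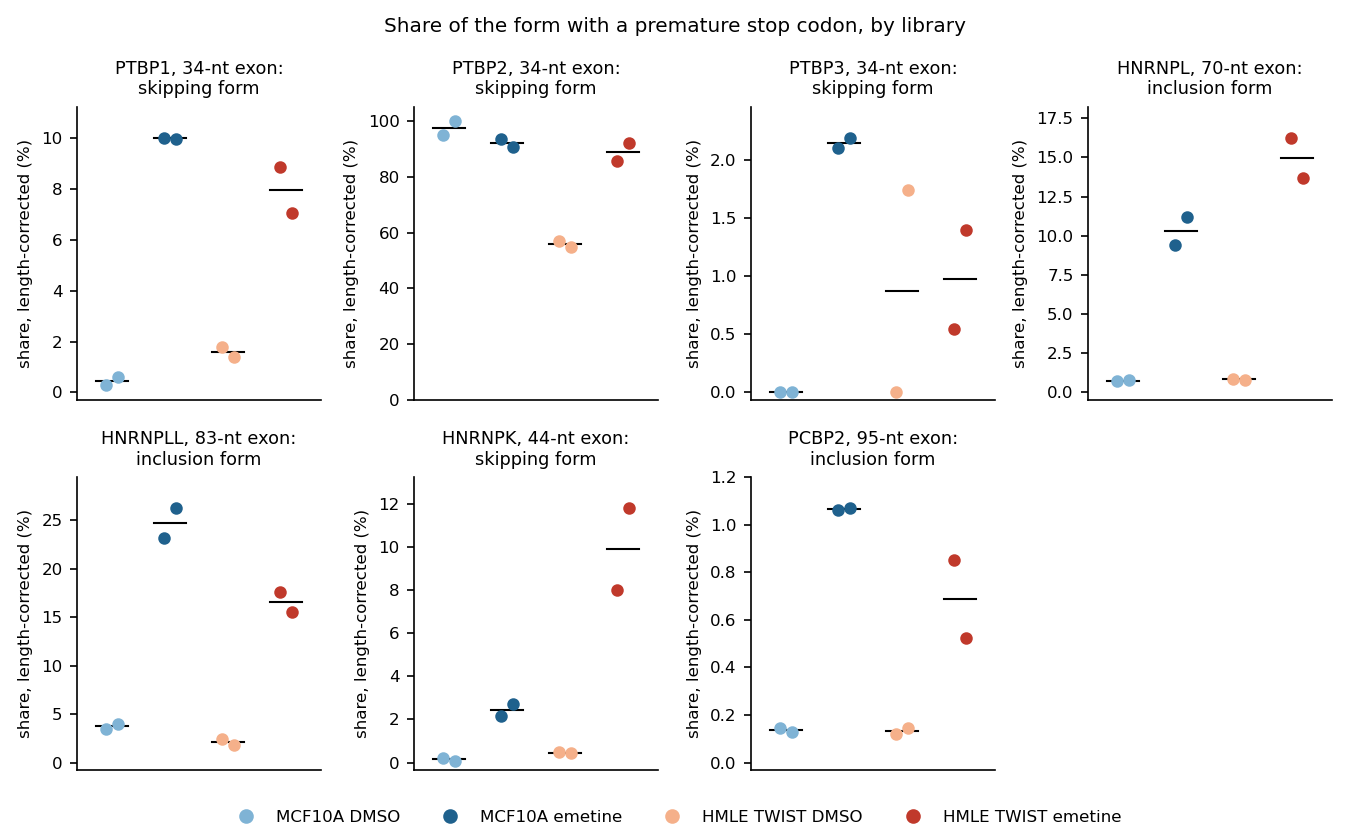
Share of the decay form in percent (y axis, a scale of its own per gene) in each of the 8 libraries, for 7 exons. Points are libraries and bars are means of 2. In 6 of the 7 exons per line both emetine libraries lie above both control libraries, the exceptions being PTBP2 in MCF10A and PTBP3 in HMLE TWIST.

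The 34-nucleotide exon of PTBP1 (chr19:807869-807902 in the files, GRCh37, coding) was included in nearly all control transcripts. Its skipping share was 0.281% and 0.592% in the MCF10A controls against 10.0% and 9.96% with emetine. In HMLE TWIST it was 1.80% and 1.40% in the controls against 8.87% and 7.05% with emetine. The groups did not overlap in either line. The mean share rose from 0.436% ± 0.220 (SD, n = 2) to 9.99% ± 0.0390 in MCF10A, with an adjusted p of 3.3e-44 by the quasi-binomial model and 0.0145 by limma. It rose from 1.60% ± 0.281 to 7.96% ± 1.29 in HMLE TWIST, with adjusted p-values of 5.38e-23 and 0.0236. Because both changes were under 0.1, neither counted as a call. A second tested HMLE TWIST event of the exon, spliced from an exon farther upstream, had a change of -0.00154 (adjusted p 0.815 in the quasi-binomial model). The controls held 14 skipping reads in MCF10A and 56 in HMLE TWIST, so their shares rest on few reads.

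PTBP2, the neuronal member, had few reads in control cells. Its 34-nucleotide exon (chr1:97271975-97272008, GRCh37, coding) was covered by 15 and 12 reads in the MCF10A controls, too few for the test, and by 311 and 173 under emetine. Its skipping share there was 94.9% and 100% in the controls against 93.6% and 90.6% with emetine, so the form that lacks the exon was the main one in all 4 libraries. In HMLE TWIST the exon was covered by 20 and 40 reads in the controls and by 218 and 127 under emetine. The skipping share was 57.1% and 54.7% in those controls against 85.6% and 92.1% with emetine, with no overlap of the groups. The inclusion level fell by 0.329, from 0.441 ± 0.0174 to 0.111 ± 0.0463, with an adjusted p of 0.000219 by the quasi-binomial model and 0.0258 by limma. Without the second listed HMLE TWIST control the adjusted p was 0.0601 and the call ended. The authors' deposited table gives this exon a false discovery rate (FDR) of 0.0384 in MCF10A, for a level that was 0.054 lower in the control.

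PTBP3, the member known from blood cells, has the exon at chr9:114993660-114993693 (GRCh37, minus strand, coding). No skipping read was seen among 847 junction reads of the MCF10A controls, which allows a share of reads of up to 0.354%. Under emetine the skipping share was 2.10% and 2.19%, on 6 and 4 skipping reads. The level fell by 0.0215 with an adjusted p of 0.0134 by the quasi-binomial model and 0.0145 by limma. The event entered the test only through these emetine reads, so the test could not have given the other direction. In HMLE TWIST the share was 0% and 1.74% in the controls against 0.548% and 1.40% with emetine, so these groups overlapped, and there were too few skipping reads for a test. Across the family the order of the control skipping shares was the same in both lines, PTBP2 first, then PTBP1, then PTBP3. PTBP1 and PTBP3 controls overlapped in HMLE TWIST but not in MCF10A. A second 34-nucleotide exon of PTBP3, near the start of the gene, stayed at levels of 0.00789 to 0.0424 in the 4 MCF10A libraries, with overlapping groups.

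HNRNPL has its 70-nucleotide exon at chr19:39332253-39332322 (GRCh37, minus strand), between coding exons. Its inclusion share was 0.735% and 0.769% in the MCF10A controls against 9.38% and 11.2% with emetine. In HMLE TWIST it was 0.891% and 0.785% in the controls against 16.3% and 13.7% with emetine. All 4 emetine libraries lay far above all 4 controls. The level rose by 0.0954 in MCF10A, with an adjusted p of 3.18e-157 by the quasi-binomial model and 0.0145 by limma. In HMLE TWIST it rose by 0.141, which was a call, with adjusted p-values of 3.24e-285 and 0.0113. The MCF10A change lay just under the threshold of 0.1, and it was 0.104 without the first listed emetine library. The very small p-values follow from deep coverage and a dispersion shared by all events, and limma's rest on the spread of each event moderated across events.

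HNRNPLL has its 83-nucleotide exon at chr2:38805062-38805144 (GRCh37, minus strand), also between coding exons. Inclusion was 3.44% and 4.02% in the MCF10A controls against 23.1% and 26.3% with emetine. In HMLE TWIST it was 2.41% and 1.78% in the controls against 17.6% and 15.6% with emetine. The groups were well apart in both lines, and this was the one exon of the 7 genes called in both. The level rose by 0.210 in MCF10A (adjusted p 1.13e-24 in the quasi-binomial model, 0.0174 by limma) and by 0.145 in HMLE TWIST (adjusted p 3.26e-22 and 0.0140). The 119-nucleotide exon, the other tested exon of the gene, had changes of -0.0141 and -0.0158 that did not pass, with adjusted p-values of 0.238 and 0.146 in the quasi-binomial model.

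HNRNPK, which also acts in transcription and translation, has its 44-nucleotide coding exon at chr9:86590377-86590420 (GRCh37, minus strand). The exon was skipped in 0.212% and 0.0941% of MCF10A control transcripts and in 2.16% and 2.73% under emetine. In HMLE TWIST skipping was 0.492% and 0.424% in the controls against 8.02% and 11.8% with emetine. Emetine libraries were above controls in both lines, and the HMLE TWIST emetine pair was above the MCF10A emetine pair. The level fell by 0.0229 in MCF10A (adjusted p 3.6e-44 in the quasi-binomial model, 0.0178 by limma) and by 0.0946 in HMLE TWIST (2.42e-162 and 0.0113). Under emetine the level was 0.0748 lower in HMLE TWIST than in MCF10A, with an adjusted p of 3.28e-81 by the quasi-binomial model and 0.0933 by limma. The line-by-treatment term, which is measured on the log odds scale, had an adjusted p of 0.772, so a difference in the size of the response was not detected for this exon.

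PCBP2, an abundant factor that also stabilises messenger RNAs, makes its decay form by including a 95-nucleotide exon. In its deepest event, inclusion was 0.146% and 0.130% in the MCF10A controls against 1.06% and 1.07% with emetine. In HMLE TWIST it was 0.121% and 0.144% in the controls against 0.852% and 0.524% with emetine. The shares were small, but the groups did not overlap. The level rose by 0.00929 in MCF10A (adjusted p 9.35e-24 in the quasi-binomial model, 0.0175 by limma) and by 0.00556 in HMLE TWIST (6.95e-15 and 0.0295). The authors' deposited table gives an FDR of 1 for this event in each line. A second MCF10A event of the same exon, spliced from an exon farther upstream and covered by 64 to 81 reads, had levels of 0.0865 and 0.0504 in the controls against 0.549 and 0.461 with emetine. It rose by 0.437 with an adjusted p of 1.13e-10 by the quasi-binomial model and was called. It counts the same downstream inclusion junction as the deepest event, against a rare skipping junction, so it is no separate measurement of the exon.

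The reads of the decay form and of the other, productive form moved by different amounts. In reads per 1000000 over the 56675 events listed for both lines, the mean decay form of HNRNPL was 17.9 times its control value in MCF10A and 21.1 times in HMLE TWIST, while the productive form was 1.18 and 1.01 times. For HNRNPLL the decay form was 20.1 and 18.5 times and the productive form 2.38 and 1.99 times the control value. HNRNPK reached 15.5 and 17.9 times for the decay form and 0.962 and 0.764 times for the productive one. PTBP1 had 33.0 and 9.65 times for the decay form, with the productive form at 1.25 and 1.81 times. For PCBP2 the productive form stood at 0.535 and 0.649 times its control value, and the decay form at 4.18 and 3.27 times. The productive form of PTBP3 was likewise below its control value in both lines, at 0.730 and 0.652 times. Its decay form was at 0.732 times in HMLE TWIST, on 4 control reads. No ratio is given for it in MCF10A, where the controls held no such read. The decay form of PTBP2 was 17.0 times its control value in MCF10A and 9.87 times in HMLE TWIST. Its productive form was 1.67 times in HMLE TWIST, and no ratio is given for MCF10A, where the control libraries held 1 productive read. These ratios were not tested.

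Junction reads of the whole gene, summed over its events listed for both lines, moved most for PTBP2. Its reads per 1000000 were 3.34 and 3.21 in the MCF10A controls against 61.5 and 36.3 with emetine, and 7.04 and 5.65 in the HMLE TWIST controls against 44.3 and 27.8 with emetine. That was 14.9 times the control mean in MCF10A and 5.67 times in HMLE TWIST, with no overlap. HNRNPLL was at 2.95 and 2.21 times and PTBP1 at 1.31 and 1.94 times its control mean. PCBP2 was at 0.541 and 0.654 times, and its emetine libraries were all below the controls of the same line. PTBP3 was at 0.843 and 0.592 times, HNRNPL at 1.39 and 1.18 times and HNRNPK at 1.02 and 0.853 times. In control cells HMLE TWIST had 1.94 times the PTBP2 reads of MCF10A, and the other 6 genes had between 0.850 and 1.42 times. In bulk libraries fewer cells and less RNA per cell cannot be told apart, and these sums, in which a read can count more than once, were not tested.

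**Figure D2:**
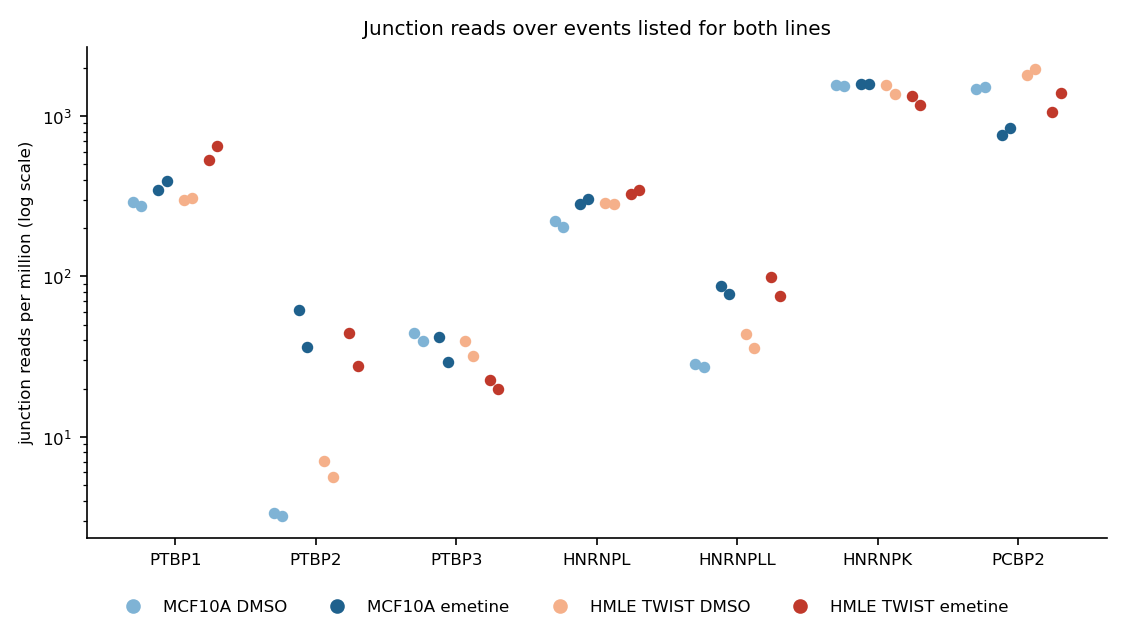
Junction reads per 1000000 over the events listed for both lines (y axis, log scale) for the 7 genes, with 1 point per library. PTBP2 emetine libraries lie at 27.8 to 61.5 and its controls at 3.21 to 7.04, while PCBP2 emetine libraries lie below the controls of their line.

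Most events of the 7 genes lay close to full inclusion and few were called. In MCF10A 27 of the 69 events could be tested and 12 had an adjusted p under 0.05 in the quasi-binomial model, 5 with higher and 7 with lower inclusion, beside 18.1% and 17.5% of all tested events. In HMLE TWIST 32 of 73 events could be tested and 13 passed, 6 with higher and 7 with lower inclusion, beside 15.2% and 23.8%. Of the 42 events not tested in MCF10A, 37 had a level over 0.95 in every library, as had 39 of the 41 in HMLE TWIST. MCF10A had 2 calls, both higher, where 13.7% of all tested events were called, 8.28% higher and 5.40% lower. HMLE TWIST had 4 calls, 3 higher and 1 lower, where 14.8% of all tested events were called, 6.57% higher and 8.25% lower. limma made 2 and 4 calls among the members, where it called 7.88% and 9.94% of all tested events. The median absolute change of the tested member events was 0.0142 in MCF10A and 0.0235 in HMLE TWIST, and over all tested events it was 0.0239 and 0.0256. The authors' deposited table gives 12 member events with an FDR under 0.05 in each line, of which 4 in each line also differed by at least 0.1.

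The fourth HMLE TWIST call was the 149-nucleotide exon of PTBP1 (chr19:806408-806556, GRCh37) in an event whose skipping form joins an exon near the start of the gene to the exon after the 34-nucleotide one. Its levels were 0.762 and 0.862 in the controls, on 37 and 27 reads, and 0.973 and 0.956 under emetine, on 294 and 266 reads. It rose by 0.153 with an adjusted p of 0.0446 by the quasi-binomial model and 0.0273 by limma. With the larger dispersion the adjusted p was 0.0503, which is no call. One of its inclusion junctions is the junction that skips the 34-nucleotide exon, so it shares reads with the decay form of PTBP1. The call ended without the first listed control (adjusted p 0.404), the second listed control (0.0755) or the first listed emetine library (0.102).

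**Figure D3:**
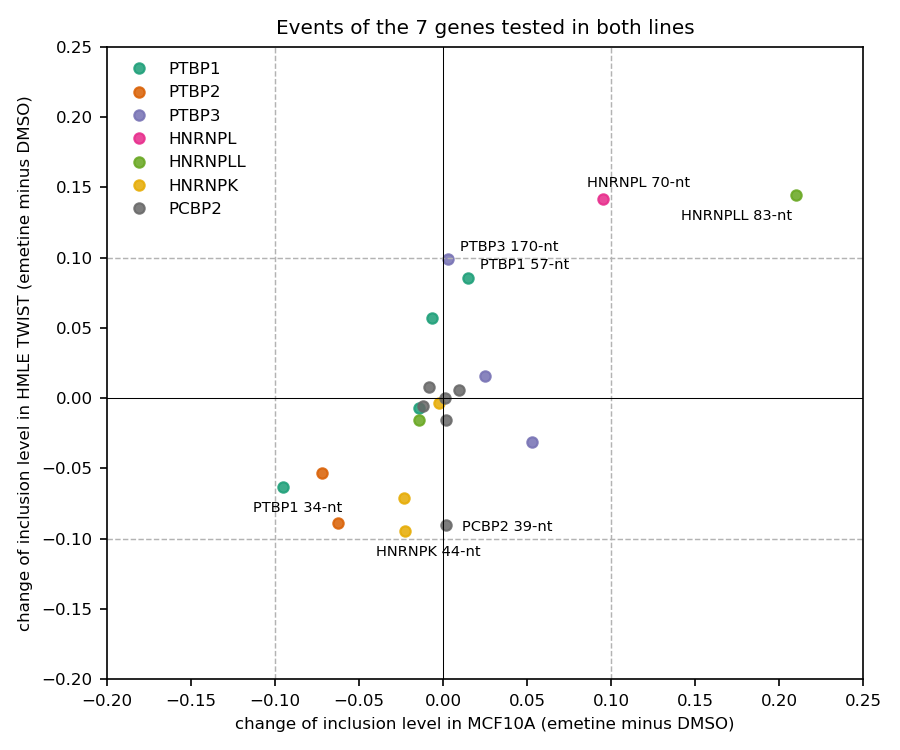
Change of the inclusion level under emetine in MCF10A (x axis) and in HMLE TWIST (y axis) for the 21 events of the 7 genes tested in both lines, coloured by gene, with broken lines at the threshold of 0.1. HNRNPLL (0.210 and 0.145) and HNRNPL (0.0954 and 0.141) lie at the upper right, and PTBP1 34-nt, PTBP2 and HNRNPK events at the lower left.

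Skipping of 6 other tested exons of these genes also puts a stop more than 50 nucleotides before the last junction in annotated coding transcripts. This stop was read from the start codon of transcripts that hold the exon. For PTBP1 31-nt, PTBP3 170-nt and the second 34-nucleotide exon of PTBP3, GENCODE 29 also gives the skipping form in protein-coding transcripts. Skipping of those exons therefore need not make a target of decay. In MCF10A the skipping form of 2 of the 6 exons rose, that of 1 fell and 3 did not pass in the quasi-binomial model. In HMLE TWIST 1 of 6 rose and 5 did not pass. For the 55-nucleotide exon of HNRNPK skipping rose by 0.00237 in MCF10A and by 0.00312 in HMLE TWIST. The adjusted p-values were 9.88e-06 and 0.00180 in the quasi-binomial model, 0.268 and 0.0869 with the larger dispersion, and 0.0450 and 0.148 by limma. In MCF10A this skipping form had 0 and 0 reads in the controls and 4 and 32 under emetine. It met the minimum of 10 only through the emetine libraries and could not have fallen there, so its MCF10A rise adds nothing to the count of rises. For the 31-nucleotide exon of PTBP1 skipping rose by 0.0142 in MCF10A. Its adjusted p was 0.000458 in the quasi-binomial model, 0.185 with the larger dispersion and 0.264 by limma. The difference of 0.00686 in HMLE TWIST did not pass (adjusted p 0.0822 in the quasi-binomial model). The 175-nucleotide exon of PTBP3 went the other way. Its inclusion level was 0.979 and 0.968 in the MCF10A controls against 0.996 and 1 with emetine, so that skipping fell by 0.0247 (adjusted p 0.0375 in the quasi-binomial model, 0.0341 by limma). The skipping form had 7 and 9 reads in those controls and 1 and 0 under emetine. The exon thus met the minimum of 10 only through the controls, and its fall rests on few reads. In HMLE TWIST its inclusion was 0.0160 higher under emetine (adjusted p 0.294). The other 3 were HNRNPLL 119-nt, PTBP3 170-nt and the second 34-nucleotide exon of PTBP3, and they did not pass in either line. The PTBP3 170-nt exon gives such a stop on inclusion as well, in another transcript.

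Away from these forms, the PTBP1 78-nucleotide exon lengthens the linker between RNA-binding domains and is in frame. Its levels were 0.793 and 0.844 in the MCF10A controls against 0.820 and 0.804 with emetine, which overlapped, with an adjusted p of 0.850 in the quasi-binomial model. The HMLE TWIST levels were 0.772 and 0.705 in the controls against 0.805 and 0.786 with emetine. The rise of 0.0572 there had an adjusted p of 2.83e-05 by the quasi-binomial model but 0.130 with the larger dispersion and 0.478 by limma. The 57-nucleotide form of the same exon uses a later acceptor site and shares its skipping reads. It rose by 0.0857 in HMLE TWIST, with adjusted p-values of 0.000235, 0.0508 and 0.425 in the same order. The in-frame 78-nucleotide exon of PTBP2 (levels of 1 in every control) was at 0.943 and 0.912 under emetine in MCF10A and at 0.949 and 0.945 in HMLE TWIST. Neither change passed in the quasi-binomial model (adjusted p 0.203 and 0.108), whereas limma gave 0.0739 and 0.0311. The controls held only 30 to 86 reads, none of them a skipping read. The minimum of 10 was thus met only through the treated libraries. A rise of the level could not have been seen, so limma's 0.0311 says nothing about the direction. A second event of that exon had changes of -0.0629 and -0.0890. Its adjusted p-values were 0.421 and 0.0642 in the quasi-binomial model and 0.388 and 0.0210 by limma. This event too met the minimum of 10 only through the emetine libraries.

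HNRNPK has a 72-nucleotide in-frame exon that also fell under emetine. Its levels were 0.948 and 0.944 in the MCF10A controls against 0.921 and 0.925 with emetine. HMLE TWIST had 0.920 and 0.922 in the controls against 0.856 and 0.844 with emetine. The groups did not overlap, and the exon fell by 0.0233 and 0.0710, with adjusted p-values of 6.2e-08 and 2.95e-35 by the quasi-binomial model but 0.350 and 0.126 by limma. Its line-by-treatment term had an adjusted p of 0.00648 by the quasi-binomial model and 0.779 by limma. In PTBP3 the 170-nucleotide exon was at 0.740 and 0.754 in the HMLE TWIST controls and at 0.827 and 0.864 under emetine. That change of 0.0987 did not pass (adjusted p 0.112 in the quasi-binomial model), and the MCF10A emetine libraries stood apart from each other at 0.756 and 0.902. A second event of the exon, with another flanking exon, went the other way in HMLE TWIST, from 0.850 and 0.855 to 0.720 and 0.924, a change of -0.0309 (adjusted p 0.506), and had a change of 0.0529 in MCF10A (adjusted p 0.303 in the quasi-binomial model). The tested events of all exons not described here, 2 in MCF10A and 5 in HMLE TWIST, had changes of 0.00127 to 0.0147 and of -0.000369 to 0.0442.

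Differences between the lines were tested over the 8 libraries on events with the same coordinates in both tables, 30 of them in these genes. The 34-nucleotide exon of PTBP2 was not among them, because the MCF10A controls had only 15 and 12 reads. Its control levels were 0.0508 and 0 in MCF10A and 0.429 and 0.453 in HMLE TWIST, and under emetine the lines overlapped. Among the 30 tested events, the only exon called between the lines was the 39-nucleotide in-frame exon of PCBP2 (chr12:53861589-53861627, GRCh37). Without it the open reading frame shortens from 335 to 322 codons. Its levels were 0.911 and 0.912 in the MCF10A controls and 0.615 and 0.576 in the HMLE TWIST controls. Under emetine they were 0.920 and 0.906 in MCF10A and 0.518 and 0.492 in HMLE TWIST. The lines did not overlap under either treatment. The level was 0.316 lower in HMLE TWIST in the controls and 0.408 lower under emetine. The adjusted p-values of the quasi-binomial model were written as 0, being too small to be represented. With the larger of the event's own and the shared dispersion they were 5.92e-95 and 1.4e-86, and limma's were 0.0394 and 0.0286. This was the one call among the member events in the controls, where 3.47% of all tested events were called. Under emetine there were 2 calls beside 7.61% of all tested events, the other being the same exon spliced to an acceptor site a codon farther downstream, at 0.990 and 0.988 in MCF10A and 0.891 and 0.871 in HMLE TWIST. Marker genes moved with the line as given above. The 63-nucleotide exon of ENAH, known from epithelial cells, had levels of 0.377 and 0.349 in the MCF10A controls and 0.0201 and 0.0154 in those of HMLE TWIST. Their part in the PCBP2 difference was not tested.

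In HMLE TWIST the 39-nucleotide exon fell by 0.0904 under emetine, with an adjusted p of 4.77e-31 by the quasi-binomial model and 0.384 by limma. In MCF10A its groups overlapped and the change was 0.00144 (adjusted p 0.909). For the line-by-treatment term the adjusted p was 2.34e-05 by the quasi-binomial model, 0.429 with the larger dispersion and 0.747 by limma. Between the lines the change differed by -0.0919. It passed 0.1 without the second listed HMLE TWIST control (-0.111) or the first listed HMLE TWIST emetine library (-0.105). No member event was called for that term. At an unadjusted p under 0.05 there were 8 of 30, 4 had an adjusted p under 0.05 and limma called 0, where all tested events gave 11.7% and 2.79% under those limits and 1.66% calls in the quasi-binomial model and 0.00% by limma. The other 3 of those 4 were HNRNPK 72-nt and the 78-nt and 34-nt exons of PTBP1, with adjusted p-values of 0.00648, 0.0445 and 0.00287 in the quasi-binomial model. With the larger dispersion these were 0.0109, 0.757 and 0.0327.

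Other in-frame exons of PCBP2 were closer between the lines. The 93-nucleotide exon was at 0.624 and 0.619 in the MCF10A controls against 0.638 and 0.611 with emetine. In HMLE TWIST it was at 0.605 and 0.600 in the controls against 0.567 and 0.539 with emetine, a change of -0.0494 (adjusted p 1.88e-11 in the quasi-binomial model, 0.626 by limma). Its flanking exon starts at another position in each table, so the lines were not compared by a test. The 42-nucleotide exon, whose skipping after the 93-nucleotide exon is annotated in a decay transcript although it keeps the frame, was at 0.965 and 0.967 in the MCF10A controls against 0.951 and 0.956 with emetine. It fell by 0.0121 there (adjusted p 0.0104 in the quasi-binomial model, 0.441 by limma), and its change of -0.00531 in HMLE TWIST did not pass (adjusted p 0.177).

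**Figure D4:**
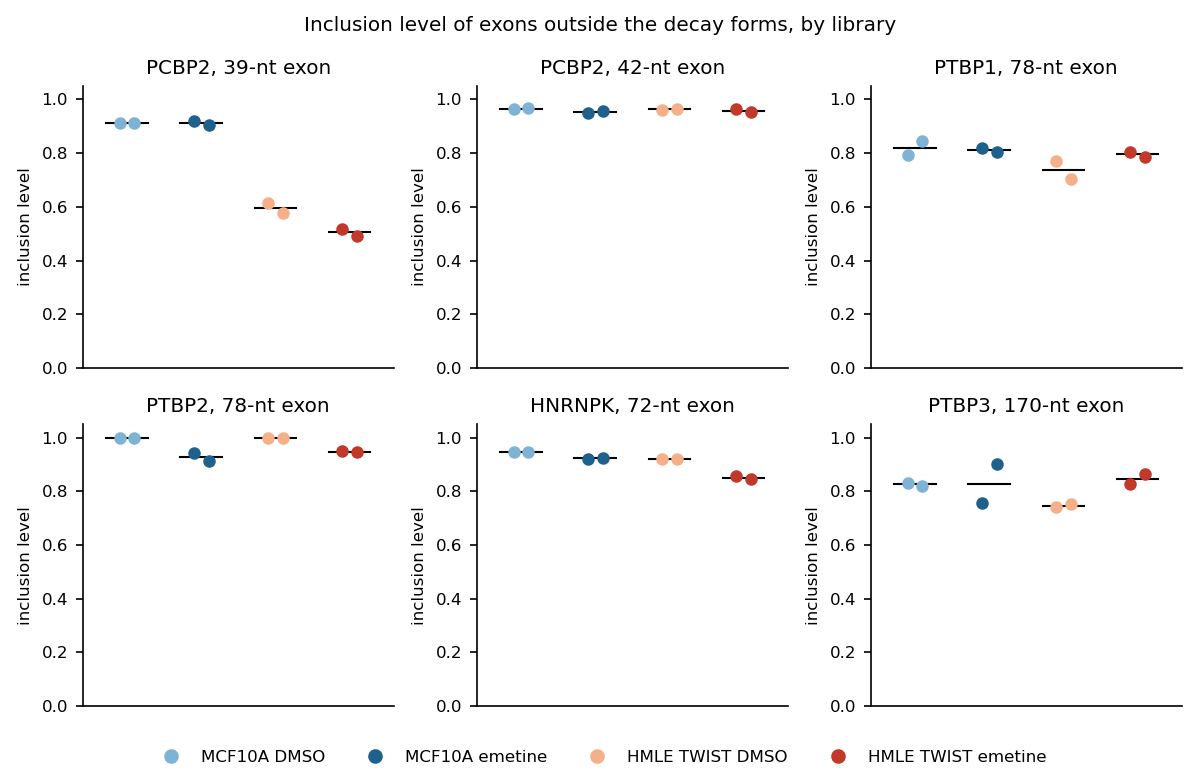
Inclusion level (y axis, 0 to 1) of 6 exons outside the 7 decay forms in each of the 8 libraries, with bars at the means of 2. The PCBP2 39-nt exon lies between 0.906 and 0.920 in MCF10A and between 0.492 and 0.615 in HMLE TWIST, while the other exons differ less between the lines.

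The protein partners and relatives of these factors, a list of 20 genes, were set beside them. In MCF10A 59 events of 15 of these genes could be tested and 8 were called, 5 higher and 3 lower. In HMLE TWIST 63 events of 15 genes were tested and 15 called, 10 higher and 5 lower. Those shares are 13.6% and 23.8%, beside 13.7% and 14.8% of all tested events. The largest changes called in both lines were those of FUBP1 and MATR3. A 100-nucleotide exon of FUBP1, a single-strand binding protein related to KHSRP, was at 0.342 and 0.167 in the MCF10A controls against 0.912 and 0.850 with emetine, and at 0.600 and 0.556 and then 0.953 and 0.877 in HMLE TWIST. Its 95-nucleotide version, which shares 1 of its 2 ends, rose likewise by 0.570 and 0.326. The 1089-nucleotide exon of MATR3, a known partner of PTBP1, had changes of -0.364 in MCF10A and -0.300 in HMLE TWIST. These 3 exons had adjusted p-values of at most 9.98e-05 by the quasi-binomial model and 0.0305 by limma.

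A list of 23 genes known for exons that these factors regulate gave 12 calls among 70 tested events in MCF10A, 6 higher and 6 lower, and 17 among 114 in HMLE TWIST, 7 higher and 10 lower. Those shares are 17.1% and 14.9%, beside the same 13.7% and 14.8% of all tested events, and the median changes were -0.000419 and -0.00156. Genes were listed rather than exons, so a tested exon need not be the one known to be regulated. The largest changes of the list called in both lines included PKM, CASP2 and DLG4. The 61-nucleotide exon of CASP2, whose inclusion gives the short caspase-2 transcript, was at 0.0963 and 0.143 in the MCF10A controls against 0.813 and 0.735 with emetine, and rose by 0.654 there and by 0.419 in HMLE TWIST. A 117-nucleotide exon of PKM, the pyruvate kinase gene, rose by 0.554 and 0.545. The 110-nucleotide exon of DLG4, a scaffold gene of synapses, had changes of -0.303 and -0.398, with adjusted p-values of 0.00732 and 5.91e-15 by the quasi-binomial model but 0.129 and 0.0159 by limma.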

How the data were processed

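The deposited tables list skipped-exon events in the format of rMATS, 1 table per line. Per the labels' protocols, the libraries were stranded, paired-end and selected for poly(A), and the submitters' processing notes name STAR 2.5.3a and GRCh37. The rMATS version is not given in the sources used here. The authors' deposited junction counts stand as pairs of libraries without replicate numbers. The table names give the order of the groups, control first. The p-value and FDR and the difference score (control minus emetine level) are the authors', per the file headers. Levels recomputed from the counts matched that score within 0.00142, and the authors' 4 columns of per-library levels were not used.

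Events were tested with a quasi-binomial model in R 4.3.3, with dispersion moderated by limma 3.58.1 (shared values of 2.05, 2.02 and 1.97 in MCF10A, HMLE TWIST and both). Groups with under 5 reads of the rarer form added nothing to the spread, a choice made after seeing the data. limma on log2 odds of the counts plus 0.5 was an alternative, as was the larger dispersion. Tests are two-sided. In simulated data 70.4% of 54 MCF10A events, 63.0% of 54 HMLE TWIST events and 35.1% of 37 differences between lines that moved by at least 0.1 were recovered. Of all shifted events, 168, 160 and 184, the shares recovered were 22.62%, 21.25% and 7.065%. Every simulated event had the same dispersion, so the behaviour of the test where events differ in spread was not examined. Exons were matched to GENCODE 29 by exon and intron lengths, which placed all 63 exons.

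The members and gene lists were chosen with earlier results of these data known. Each exon is represented by its tested event with most reads. Named were exons called in either line, the 34-nucleotide PTB exons, the PTBP1 78-nucleotide exon, exons with a form annotated only as a decay transcript, and the PCBP2 exons of 93 and 39 nucleotides. HNRNPK 55-nt and 72-nt, HNRNPLL 119-nt, PTBP1 31-nt and 57-nt, PTBP2 78-nt and PTBP3 170-nt and 175-nt were added after their values were seen. The lists beside the members were 20 partners and relatives and 23 genes with regulated exons, and the markers were epithelial, mesenchymal and lymphocyte genes. The sequence of 1 exon is not reported here.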

Additional observations from a re-analysis of the deposited data

How the results depend on the processing

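No paired analysis was possible because the columns carry no replicate numbers. The numbers of calls among the member events were recomputed under each alternative, and 62 of 69 recomputed counts stayed within 1.5 times the main one. In MCF10A the 2 calls became 1 when a single event per exon was kept, since the second PCBP2 event then left, and ranged from 2 to 3 when libraries were left out in turn. In HMLE TWIST the 4 calls became 2 with at least 50 reads per library, which removed the PTBP1 149-nt and PTBP2 34-nt events, and ranged from 3 to 5 with a library left out. The single call between lines in the controls became 2 with at least 10 reads per library, and 1 to 3 with a library left out: 2 without the first listed MCF10A control and 3 without the first listed HMLE TWIST control. Calls between lines under emetine ranged from 2 to 3. For the line-by-treatment term, 0 became 1 without the second listed HMLE TWIST control or the first listed HMLE TWIST emetine library, a range of 0 to 1. Of 632 recomputed values of named exons, 606 kept their direction and their side of the thresholds, 10 newly passed and 7 no longer passed, 6 of these for PTBP1 149-nt and 1 for PTBP2 34-nt. The other 9 changed sign with a library left out, and none of these was a call. They came from HMLE TWIST minus MCF10A in the controls for PCBP2 95-nt (-0.000171 to 0.0000563) and PCBP2 42-nt (-0.00474 to 0.000215), the same under emetine for PCBP2 42-nt (-0.000458 to 0.00945), and the emetine change in MCF10A for PCBP2 39-nt (-0.00512 to 0.00801), PTBP1 78-nt (-0.0318 to 0.0190) and the second PTBP3 34-nt exon (-0.0186 to 0.0159). Using the spread of every group, an alternative added after seeing the data, gave 2 calls in MCF10A and 4 in HMLE TWIST. Few reads limit the values of PTBP2 and PTBP1 149-nt in controls, and the skipping shares of PTBP3 and, in MCF10A controls, of PTBP1.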
